A study of Mus musculus with 20 samples.

Results

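Matrix metalloproteinases (MMPs) and their tissue inhibitors (TIMPs) were followed at the transcript level in the posterior eyecup of mice that differed in vitamin A supply. The members were 5 proteinases, *Mmp2*, *Mmp3*, *Mmp9*, *Mmp12* and *Mmp14*, and 4 inhibitors, *Timp1*, *Timp2*, *Timp3* and *Timp4*, taken by symbol. They were 9 of the 24411 genes in the table, and all 9 passed the filter on low values, as did 18807 genes in all. Bulk RNA-seq was performed on tissue labelled RPE-choroid, with, by the study's methods, both eyecups of 1 mouse pooled per library after dispase treatment and oligo(dT) selection of mRNA. The 20 libraries fell into 4 groups of 5, all on the C57BL/6 strain. Wild-type (WT) mice and *Stra6-/-* mice, which lack the retinol transporter gene *Stra6*, were weaned at about 28 days from dams on standard chow. From then on they received a vitamin A sufficient (VAS, 4 IU/g) or vitamin A deficient (VAD, 0 IU/g) diet for 12 weeks, which gave VAS WT, VAD WT, VAS *Stra6-/-* and VAD *Stra6-/-* groups.

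MMPs are zinc-dependent endopeptidases that are made as inactive proenzymes and cleave collagens, proteoglycans and other matrix proteins once activated. TIMPs bind the active site of these enzymes and block it. MMP14 sits in the cell membrane and, together with TIMP2, activates the secreted proenzyme of MMP2. TIMP3 is unusual in that it stays bound to the matrix, in the eye chiefly to Bruch's membrane under the retinal pigment epithelium (RPE), and mutations in the human gene cause Sorsby fundus dystrophy.

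The 20 libraries held 13331903 to 21878614 recovered reads, with a median of 17785927, and no pair of replicates was as alike as sampling noise alone would make it. *Stra6* itself, the targeted gene, was read first. The normalized value was 2591 ± 149 for VAS WT (mean ± SD, 5 libraries) and 629 ± 49.8 for VAS *Stra6-/-*, with a range of 564 to 694. The libraries labelled VAD *Stra6-/-* held 2163 ± 154. VAD WT held 693, 697 and 669 in replicates 1, 3 and 5, at the level of VAS *Stra6-/-*, and 1340 and 1529 in replicates 2 and 4, which stood apart in most of what follows. These levels did not follow the genotype labels of the VAD groups. The study places STRA6 in the RPE, however, and RPE content differed as well. Summed RPE markers were 30422 to 55306 in VAD WT and 488145 to 532501 in the libraries labelled VAD *Stra6-/-*. The *Stra6* level alone therefore cannot check the labels, and VAD WT below means the libraries so labelled. Sex-linked transcripts differed as well. *Xist* was 7.69 to 38.4 in VAS WT and 15320 to 18052 in VAS *Stra6-/-*, 10912 and 11767 in VAD WT replicates 2 and 4 against 174 to 234 in the other 3, and 3570 to 4280 in the libraries labelled VAD *Stra6-/-*. *Ddx3y*, from the Y chromosome, was 981 to 1193 in VAS WT, 0 to 1.02 in VAS *Stra6-/-*, 75.2 and 80.5 in VAD WT replicates 2 and 4, 1041 to 1133 in the other 3, and 741 to 970 in the libraries labelled VAD *Stra6-/-*, which thus carried both transcripts, as did VAD WT replicates 2 and 4. RNA from 1 mouse does not normally hold both at such levels, and whether libraries were mixed or exchanged was not tested. On the VAS diet, genotype and sex cannot be told apart in these libraries. Within *Stra6-/-*, diet and the pattern of these transcripts cannot be told apart either. This limit holds for VAD against VAS in *Stra6-/-* and for the interaction of genotype and diet. The labelled tissue was present, since all 10 RPE markers were detected, at a summed value of 109033 to 125596 in VAS WT. Markers of surface epithelium and cornea, which an RPE-choroid sample should largely lack, summed to 570995 to 665377 there. Their sum was 25934 to 34624 in the libraries labelled VAD *Stra6-/-*.

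The stretches of DNA just before the transcription start are given for the 4 members whose log2 fold change exceeded 2 in either comparison of the libraries labelled VAD *Stra6-/-*, since these moved together there. RefSeq promoter windows (GRCm38.p6, 250 bases before each start) matched 7 of the 9 members in 8 windows, and *Mmp2* and *Mmp9* had no entry. Up to 120 bases are shown, trimmed to lie outside every annotated exon of the gene, and the second *Mmp12* stretch lies within the annotated gene. Capitals mark the AP-1 letters TGAGTCA. The plus-strand stretches were chr9:7445702-7445821 for *Mmp3*, chr9:7344261-7344380 and chr9:7347254-7347373 for the starts of *Mmp12*, chrX:20870046-20870165 for *Timp1* and chr10:86300252-86300371 for *Timp3*.
Mmp3: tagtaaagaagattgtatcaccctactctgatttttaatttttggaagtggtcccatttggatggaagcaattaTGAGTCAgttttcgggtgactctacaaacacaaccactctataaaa
Mmp12, first start: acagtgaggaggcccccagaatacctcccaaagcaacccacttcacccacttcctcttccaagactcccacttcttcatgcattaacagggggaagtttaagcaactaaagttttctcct
Mmp12, second start: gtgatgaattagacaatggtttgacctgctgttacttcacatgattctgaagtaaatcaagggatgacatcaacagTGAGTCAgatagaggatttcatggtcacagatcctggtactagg
Timp1: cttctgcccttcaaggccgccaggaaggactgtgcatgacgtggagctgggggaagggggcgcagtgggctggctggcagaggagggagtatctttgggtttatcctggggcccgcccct
Timp3: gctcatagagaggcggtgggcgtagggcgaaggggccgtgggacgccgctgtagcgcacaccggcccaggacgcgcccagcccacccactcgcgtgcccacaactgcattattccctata
The AP-1 letters TGAGTCA or TGACTCA, searched on both strands, were found in 2 of the 8 member windows, that of *Mmp3* (beginning 46 bases before the start) and the second of *Mmp12* (beginning 44 bases before it), and in 4.46% of all 32851 windows of the same length. TATAAA on the coding strand was found in the *Mmp3* window alone (7 bases before the start; 7.59% of all windows). The GC box GGGCGG on either strand was in the windows of *Mmp14*, *Timp1*, *Timp2* and *Timp3*, and in 32.7% of all. The E-box CATGTG or CACGTG on either strand was in the second *Mmp12* window (17.6% of all windows), whereas TAATCC, bound by OTX2 (6.25% of all), and the strict retinoic acid response element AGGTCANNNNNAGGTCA (0.00913% of all), both searched on either strand, were in no member window. These matches overlapped no other motif in the member windows, and a match is a description of letters only.

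In GRCm38 (GENCODE vM21), *Mmp12* (chr9:7344381-7369499) and *Mmp3* (chr9:7445822-7455975) lie close together on the plus strand, while *Mmp2* (chr8:92827291-92853420), *Mmp9* (chr2:164940780-164955850), *Mmp14* (chr14:54431612-54445364) and *Timp2* (chr11:118301069-118355740, minus strand) are on other chromosomes. *Timp1* (chrX:20870166-20874735), *Timp3* (chr10:86300372-86349506) and *Timp4* (chr6:115241892-115252205, minus strand) each lie inside a synapsin gene of the opposite strand, *Syn1*, *Syn3* and *Syn2*. *Timp1* shares 0 exon bases with other coding genes, *Timp3* shares 1733 with *Syn3*, *Timp4* shares 90 with *Syn2* and Gm17482 counted together, and *Mmp12* shares 157 with *Mmp1b* on the opposite strand.

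Values below are read counts divided by a size factor, and fold changes are differences of log2(value + 1) from 1 limma fit over all 20 libraries. A gene was called at a Benjamini-Hochberg adjusted p under 0.05 over all genes tested. In VAS *Stra6-/-* against VAS WT, 0 of the 9 members were called by limma, 0 by edgeR and 0 by DESeq2, and 0 reached an unadjusted p under 0.05, while limma called 26.6% of all genes. With the 2 groups fitted alone, or without VAD WT replicates 2 and 4, 3 members were called in this comparison (*Mmp2*, *Timp2* and *Timp3*), beside 45.2% and 39.9% of all genes. In VAD WT against VAS WT, 1 member was called, *Mmp12*, which was lower, beside 8.78% of all genes in either direction and 5.5% downwards. In the libraries labelled VAD *Stra6-/-* against VAS *Stra6-/-*, 6 of 9 members rose and none fell, whereas 24.4% of all genes rose and 28.8% fell. *Mmp3*, *Mmp12* and *Timp3* also passed a log2 fold change of 2, as did 1.67% of all genes upwards. Against VAD WT, 8 members were higher in the libraries labelled VAD *Stra6-/-* and 1, *Mmp9*, was lower, beside 26.2% and 29.6% of all genes. Here *Mmp3*, *Mmp12*, *Timp1* and *Timp3* exceeded a log2 fold change of 2, as did 3.52% of all genes. These last comparisons share the libraries labelled VAD *Stra6-/-*. The median log2 fold change of the 5 MMP members was 1.83 and that of the 4 TIMP members 1.67 against VAS *Stra6-/-*, where the median of all genes was -0.07. Against VAD WT these medians were 1.17, 1.98 and -0.05.

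**Figure D1:**
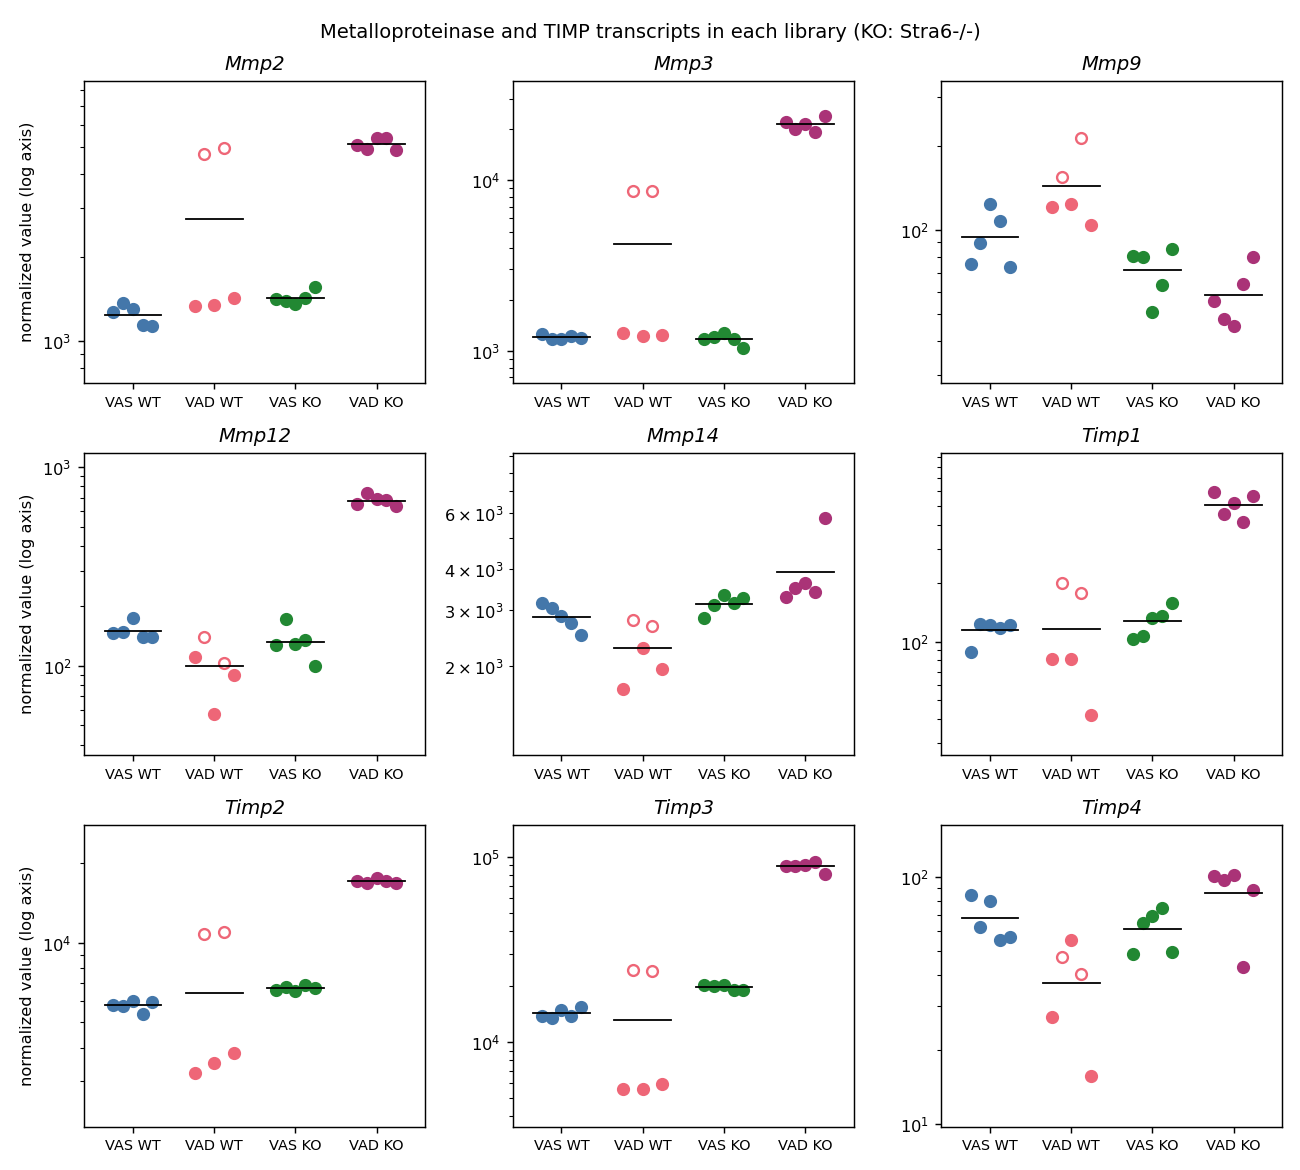
Normalized value (log axis) of each member in each of the 20 libraries by group, with KO for *Stra6-/-*; points are libraries, bars group means, and open points VAD WT replicates 2 and 4. *Mmp3*, *Mmp12*, *Timp1*, *Timp2* and *Timp3* were higher in all 5 libraries labelled VAD *Stra6-/-* than in any other library. The open points lay above every VAS library for *Mmp2*, *Mmp3*, *Mmp9*, *Timp1*, *Timp2* and *Timp3* but not for *Mmp12*, *Mmp14* or *Timp4*.

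*Mmp3*, or stromelysin-1, cleaves proteoglycans, fibronectin and basement membrane proteins and activates other MMPs. It was 1250, 1183, 1170, 1220 and 1189 in VAS WT replicates 1 to 5, and 1176, 1212, 1271, 1173 and 1036 in VAS *Stra6-/-*. In VAD WT it was 1278, 8664, 1226, 8653 and 1240, and in the libraries labelled VAD *Stra6-/-* 21829, 19829, 21326, 19249 and 23788. The VAS groups overlapped and the libraries labelled VAD *Stra6-/-* lay above every other library, while VAD WT split into 3 libraries at the VAS level and 2 far above it. *Mmp3* rose 18.0-fold against VAS *Stra6-/-* (log2 4.17 ± 0.43 SE, adjusted p = 3.87e-08), the largest change of any member. It was 7.80-fold higher than in VAD WT (log2 2.96, adjusted p = 4.94e-06), a log2 difference of 4.08 without VAD WT replicates 2 and 4, 2.29 in edgeR and 2.32 in DESeq2. VAD WT against VAS WT gave a log2 difference of 1.17 (adjusted p = 0.103), and 0.05 without those replicates (adjusted p = 0.549). With VAD WT replicate 1, 3 or 5 left out instead, that difference was called, at adjusted p = 0.0432, 0.0400 and 0.0413, as it was in edgeR (0.0139) and DESeq2 (0.00142). Markers of the aqueous outflow tissue (*Myoc*, *Angptl7*, *Chil1* and *Mgp*) moved in the same libraries. Their summed value was 14253 to 16964 in VAS WT and 16596 to 18351 in VAS *Stra6-/-*. It was 54986 and 51375 in VAD WT replicates 2 and 4 against 9805 to 10847 in replicates 1, 3 and 5. In the libraries labelled VAD *Stra6-/-* it was 83355 to 93208. There 4 of 4 rose against VAS *Stra6-/-*, beside 24.4% of all genes. Tendon markers and fibroblast and sclera markers, given below for *Mmp2*, were also high in VAD WT replicates 2 and 4 and in the libraries labelled VAD *Stra6-/-*. The part of any of these tissues in the *Mmp3* result was not tested. In bulk tissue, more cells of a type and more RNA per cell cannot be told apart.

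*Mmp12*, the macrophage elastase, degrades elastin, a main component of Bruch's membrane. Its values were 145, 148, 173, 140 and 139 in VAS WT, 111, 139, 56.8, 103 and 89.7 in VAD WT, 127, 171, 128, 134 and 99.3 in VAS *Stra6-/-*, and 651, 737, 690, 680 and 634 in the libraries labelled VAD *Stra6-/-*. No library of another group came near the last 5. *Mmp12* rose 5.18-fold against VAS *Stra6-/-* (log2 2.37 ± 0.18, adjusted p = 4.17e-10) and was 7.01-fold higher than in VAD WT (log2 2.81, adjusted p = 3.01e-11). Unlike *Mmp3*, it was not raised in VAD WT replicates 2 and 4. It was lower in VAD WT than in VAS WT by 1.54-fold (log2 -0.63 ± 0.18, adjusted p = 0.0361), with the highest VAD WT value at 139.1 and the lowest VAS WT value at 139.2. That call was lost, at adjusted p = 0.0544 to 0.0929, on leaving out any VAS WT replicate or VAD WT replicate 3 or 5, at 0.239 when the 2 groups were fitted alone, and at 0.0561 in edgeR. Macrophage and microglia markers summed to 6536 to 7039 in VAS WT, 4986 to 5687 in VAD WT with replicates 2 and 4 at 5349 and 5227, 5944 to 6538 in VAS *Stra6-/-*, and 16919 to 17613 in the libraries labelled VAD *Stra6-/-*. Of the 10 markers, 10 rose against VAS *Stra6-/-*, beside 24.4% of all genes. In VAD WT against VAS WT 5 fell and 1 rose, beside 5.5% of all genes downwards and 8.78% in either direction. RPE markers, given below for *Timp3*, were likewise highest in the libraries labelled VAD *Stra6-/-* and lower in VAD WT than in VAS WT. The part of either cell type in the *Mmp12* values was not tested. *Mmp12* shares 157 exon bases with *Mmp1b* on the opposite strand, and the strand of the kit was not given in the sources used here, but *Mmp1b* was at 0 in 19 libraries and at 0.878 in 1.

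*Mmp2*, the gelatinase that degrades type IV and denatured collagens, followed the *Mmp3* split. It was 1278, 1368, 1303, 1147 and 1130 in VAS WT, 1414, 1397, 1363, 1426 and 1564 in VAS *Stra6-/-*, 1339, 4717, 1348, 4932 and 1427 in VAD WT, and 5055, 4886, 5377, 5348 and 4855 in the libraries labelled VAD *Stra6-/-*. VAD WT replicate 4 lay within the range of the libraries labelled VAD *Stra6-/-* and replicate 2 just under it. *Mmp2* rose 3.56-fold against VAS *Stra6-/-* (log2 1.83 ± 0.28, adjusted p = 1.13e-05). It was 2.25-fold higher than in VAD WT (log2 1.17, adjusted p = 0.00137), with a log2 difference of 1.89 without VAD WT replicates 2 and 4. Between the WT groups the log2 difference was 0.87 (adjusted p = 0.0621), which passed the threshold without VAD WT replicate 1, 3 or 5 (0.0218, 0.0234 and 0.0296), in edgeR (0.0184) and in DESeq2 (0.00658). Tendon markers (*Tnmd*, *Scx*, *Mkx*, *Fmod*, *Thbs4* and *Comp*) summed to 7913 to 8737 in VAS WT, 8870 to 9615 in VAS *Stra6-/-*, 36614 and 36122 in VAD WT replicates 2 and 4, 5675 to 6741 in the other 3, and 40106 to 42524 in the libraries labelled VAD *Stra6-/-*. Fibroblast and sclera markers summed to 8912 to 9701 in VAS WT, 8960 to 9546 in VAS *Stra6-/-*, 23520 and 24532 in those replicates, 8279 to 8544 in the other 3, and 37848 to 39128 in the libraries labelled VAD *Stra6-/-*. The part of either tissue in the *Mmp2* values was not tested.

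**Figure D2:**
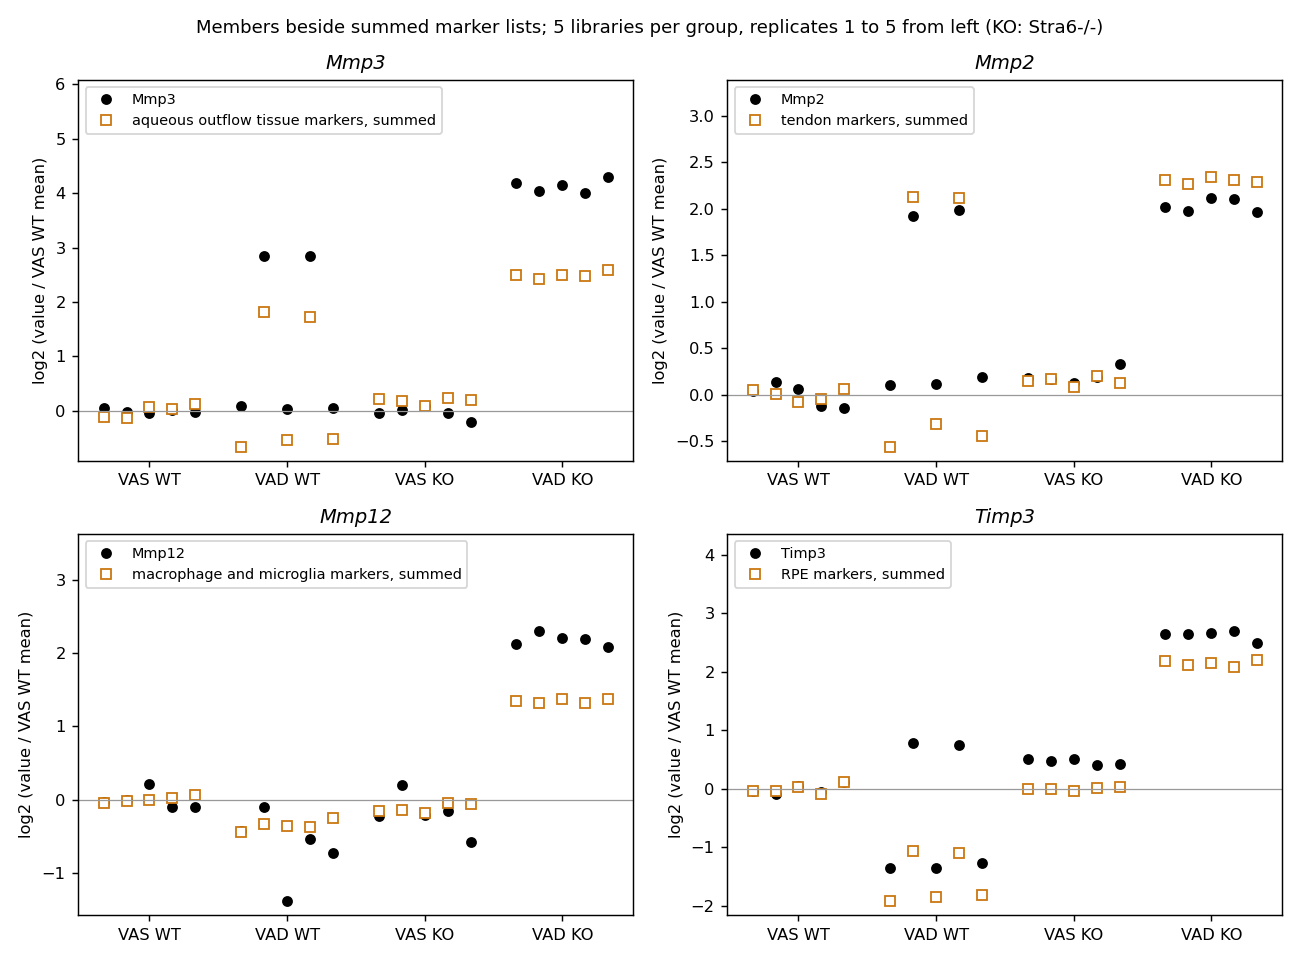
Each member (filled circles) and a summed marker list (open squares) as log2 of its value over the VAS WT mean, in the 5 libraries of each group, replicates 1 to 5 from the left, with KO for *Stra6-/-*. *Mmp3* and *Mmp2* were high where outflow and tendon markers were high, including VAD WT replicates 2 and 4. *Mmp12* was high only in the libraries labelled VAD *Stra6-/-*, beside macrophage markers. *Timp3* stood above the RPE markers in VAD WT and in both *Stra6-/-* groups.

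*Mmp14*, the membrane-type proteinase that activates MMP2, had smaller fold changes than *Mmp2*. VAS WT held 3139, 3038, 2858, 2728 and 2505, VAD WT 1693, 2775, 2272, 2664 and 1952, VAS *Stra6-/-* 2829, 3090, 3324, 3151 and 3256, and the libraries labelled VAD *Stra6-/-* 3274, 3497, 3634, 3408 and 5759. VAS WT overlapped VAD WT and VAS *Stra6-/-*, and the libraries labelled VAD *Stra6-/-* overlapped VAS *Stra6-/-* but lay above every WT library, with replicate 5 alone above the rest. Relative to VAD WT, *Mmp14* was 1.71-fold higher in the libraries labelled VAD *Stra6-/-* (log2 0.78 ± 0.14, adjusted p = 6.52e-05). Against VAS *Stra6-/-* the log2 difference was 0.29 (adjusted p = 0.0858), and it passed the threshold in edgeR (adjusted p = 0.0369) and DESeq2 (0.0292), and in limma with the 2 groups alone (0.0295) or without VAD WT replicates 2 and 4 (0.0222). VAD WT against VAS WT gave -0.35 (adjusted p = 0.136), and without VAD WT replicate 2, or without replicate 5 of the libraries labelled VAD *Stra6-/-*, adjusted p was 0.0468 and 0.0471.

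*Mmp9*, the other gelatinase, was the only member whose level in the libraries labelled VAD *Stra6-/-* fell short of that in VAD WT at the threshold. It was 75.6, 89.4, 124, 107 and 73.2 in VAS WT, 120, 155, 123, 213 and 104 in VAD WT, 80.2, 80.1, 50.8, 63.3 and 85.2 in VAS *Stra6-/-*, and 55.4, 47.8, 45.0, 64.1 and 79.5 in the libraries labelled VAD *Stra6-/-*. Every VAD WT library lay above every *Stra6-/-* library of either diet, and the *Stra6-/-* groups overlapped. *Mmp9* was 2.40-fold lower than in VAD WT (log2 -1.26 ± 0.24, adjusted p = 1.04e-04), and the difference from VAS *Stra6-/-* was -0.30 (adjusted p = 0.301). Neutrophils are a known source of MMP9. Of the 8 neutrophil markers listed, *Ly6g* was not in the table, *Mpo* was 0 in every library and *Elane* did not exceed 5.04. The list summed to 133 to 236 in VAS WT, 51.1 to 217 in VAD WT, 198 to 349 in VAS *Stra6-/-* and 341 to 448 in the libraries labelled VAD *Stra6-/-*. The part of neutrophils in the *Mmp9* values was not tested.

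*Timp3*, the inhibitor of Bruch's membrane, was the most abundant member in reads. It was 13943, 13560, 14856, 13868 and 15527 in VAS WT, and 20461, 20024, 20441, 19047 and 19210 in VAS *Stra6-/-*. In VAD WT it was 5605, 24609, 5614, 24168 and 5944, and in the libraries labelled VAD *Stra6-/-* 89726, 89437, 90889, 93249 and 81068. The VAS groups did not overlap, and VAD WT lay on both sides of them, with replicates 1, 3 and 5 under every VAS library and replicates 2 and 4 over them. *Timp3* rose 4.48-fold against VAS *Stra6-/-* (log2 2.16 ± 0.33, adjusted p = 8.72e-06) and was 8.69-fold higher than in VAD WT (log2 3.12, adjusted p = 5.20e-08), or by a log2 difference of 3.96 without VAD WT replicates 2 and 4. The difference of 0.47 between the VAS groups was not called (adjusted p = 0.330) in the fit of all 20 libraries, which share 1 estimate of the error. It was called with the 2 groups alone (adjusted p = 1.23e-08) and without VAD WT replicates 2 and 4 (7.08e-09), as were *Timp2* (log2 0.22, adjusted p = 8.01e-05 and 1.58e-04) and *Mmp2* (log2 0.20, 0.00778 and 0.00427). The RPE markers summed to 109033 to 125596 in VAS WT, 112255 to 118367 in VAS *Stra6-/-*, 30422 to 32984 in VAD WT replicates 1, 3 and 5, 55306 and 53847 in replicates 2 and 4, and, across the libraries labelled VAD *Stra6-/-*, 488145 to 532501. In VAS *Stra6-/-* against VAS WT, 3 of these 10 markers fell and 7 were not called, beside 26.6% of all genes called in either direction. Of the same 10, 9 rose in the libraries labelled VAD *Stra6-/-* against VAS *Stra6-/-*, beside 24.4% of all genes. Their part in the *Timp3* values was not tested. *Syn3*, whose exons overlap those of *Timp3*, stayed between 79.9 and 226 in every library.

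*Timp2*, which both inhibits MMP2 and takes part in its activation, showed the same order. It was 5796, 5755, 6015, 5381 and 5953 in VAS WT, 6635, 6789, 6554, 6895 and 6738 in VAS *Stra6-/-*, 3205, 10791, 3500, 10934 and 3801 in VAD WT, and 17131, 16888, 17500, 17073 and 16874 in the libraries labelled VAD *Stra6-/-*. Again VAD WT fell on both sides of the VAS groups, which did not overlap each other. *Timp2* rose 2.54-fold against VAS *Stra6-/-* (log2 1.35 ± 0.26, adjusted p = 1.30e-04) and was 3.11-fold higher than in VAD WT (log2 1.64, adjusted p = 1.28e-05), which became 2.29 without VAD WT replicates 2 and 4.

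*Timp1*, an inducible inhibitor of most secreted MMPs, was 88.4, 123, 122, 117 and 121 in VAS WT and 104, 106, 132, 136 and 158 in VAS *Stra6-/-*. In VAD WT it was 81.3, 200, 80.9, 177 and 41.6, and in the libraries labelled VAD *Stra6-/-* 588, 454, 519, 416 and 565. The libraries labelled VAD *Stra6-/-* were above all others by a wide margin. *Timp1* rose 3.99-fold against VAS *Stra6-/-* (log2 2.0 ± 0.30, adjusted p = 6.40e-06) and was 5.02-fold higher than in VAD WT (log2 2.33, adjusted p = 7.78e-07), or by 2.94 on that scale without VAD WT replicates 2 and 4. *Timp4*, the member with the lowest mean level per length in all 4 groups, was 84.4, 62.5, 79.8, 55.6 and 57.1 in VAS WT, 27.1, 47.4, 55.3, 40.2 and 15.6 in VAD WT, 48.8, 64.7, 69.1, 74.3 and 49.7 in VAS *Stra6-/-*, and 101, 96.5, 101, 43.0 and 87.9 in the libraries labelled VAD *Stra6-/-*. All 5 VAD WT libraries lay under the lowest VAS WT library, by as little as 55.3 against 55.6. Relative to VAD WT, *Timp4* was 2.38-fold higher in the libraries labelled VAD *Stra6-/-* (log2 1.25 ± 0.31, adjusted p = 0.00189). The differences from VAS *Stra6-/-* (log2 0.44, adjusted p = 0.260) and between the WT groups (log2 -0.96, adjusted p = 0.0644) were not called. The latter passed the threshold without VAD WT replicate 2, 3 or 4 (0.0373, 0.0344 and 0.0494), without replicate 4 labelled VAD *Stra6-/-* (0.0441), with a mean of at least 10 in a group (0.0486) and in DESeq2 (0.0340).

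Without VAD WT replicates 2 and 4, a setting fixed because they stand apart, 6 members were lower in VAD WT than in VAS WT and none was higher, beside 20.3% of all genes lower and 17.6% higher. These were *Timp3* (log2 -1.33, adjusted p = 3.64e-16), *Timp4* (-1.19, 0.0102), *Mmp12* (-0.84, 7.43e-04), *Timp1* (-0.79, 0.00438), *Timp2* (-0.73, 9.06e-12) and *Mmp14* (-0.54, 0.00118). All 4 inhibitors were thus among them, while *Mmp2* (0.14, adjusted p = 0.0839), *Mmp3* and *Mmp9* were not called. In the same 3 libraries the summed RPE markers stood at 30422 to 32984, under every VAS library, and those of surface epithelium and cornea at 857881 to 884784, above every VAS library. The part of these tissues was not tested. In this setting the libraries labelled VAD *Stra6-/-* differed from VAD WT in 9 members, of which 8 were higher, beside 30.8% of all genes higher and 32.5% lower.

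**Figure D3:**
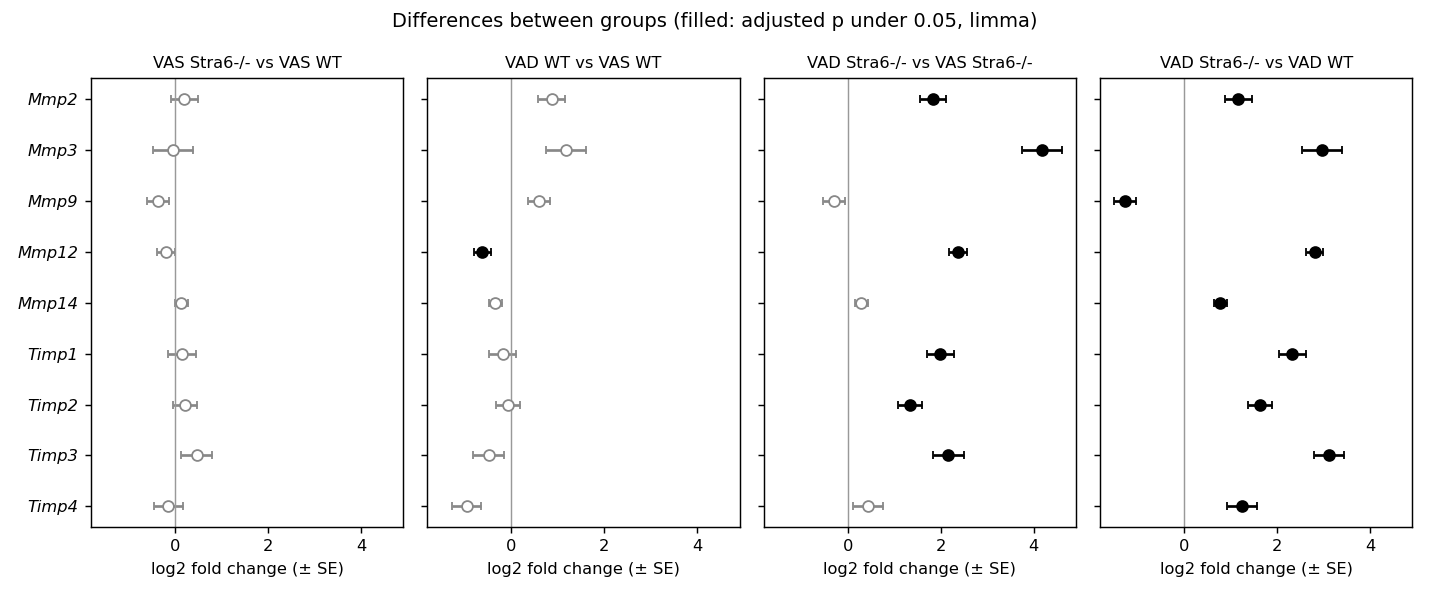
Log2 fold change ± SE of each member in the 4 comparisons between groups of 5 libraries, with filled points at an adjusted p under 0.05 in limma. No point is filled in the comparison of VAS groups and only *Mmp12* in that of WT groups, whereas 6 are filled for the libraries labelled VAD *Stra6-/-* against VAS *Stra6-/-* and 9 against VAD WT.

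The change from VAS to VAD in *Stra6-/-* libraries was set against that in WT libraries as an interaction. It differed for 8 of the 9 members, with a positive difference (*Stra6-/-* minus WT) for 7 and a negative one for *Mmp9*, beside 19.5% of all genes upwards and 24.8% downwards. Of the 7, *Mmp14* and *Timp4* had not passed the test for VAD against VAS in *Stra6-/-*, and the WT change of all but *Mmp3* was below 0. The difference of log2 changes was 3.0 ± 0.26 for *Mmp12* (adjusted p = 5.14e-09), 2.65 for *Timp3* (7.38e-05), 2.18 for *Timp1* (2.00e-04), 3.0 ± 0.61 for *Mmp3* (3.64e-04), 1.42 for *Timp2* (0.00295), 1.39 for *Timp4* (0.0144) and 0.64 for *Mmp14* (0.0114). *Mmp2* missed the threshold at 0.96 (adjusted p = 0.0570) and passed it at 1.69 without VAD WT replicates 2 and 4 (3.47e-15), or at 1.23 and 1.24 without replicate 2 or 4 alone (0.00497 and 0.00336). Without both replicates the difference was also larger for *Mmp3* (4.12), *Timp3* (3.49), *Timp1* (2.79) and *Timp2* (2.07), and for *Mmp3* it was smaller in edgeR (2.35) and DESeq2 (2.36). For *Mmp9* the difference was -0.89 (adjusted p = 0.0356), and the call was lost without VAD WT replicates 2 and 4 (-0.63, adjusted p = 0.140) and, at adjusted p = 0.0509 to 0.0728, on leaving out any 1 of VAS WT replicates 1, 2 and 5, VAD WT replicates 2 and 4, VAS *Stra6-/-* replicates 1, 2 and 5, and replicates 1, 2 and 3 labelled VAD *Stra6-/-*.

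To compare levels between members, values were divided by the length of all annotated exons of each gene in kilobases. That length counts every annotated exon, whether or not it was used in this tissue. It was 1801 bases for *Mmp3*, 7237 for *Mmp12*, 888 for *Timp1* and 5894 for *Timp4*. The order, shares and sums per kb thus depend in part on the annotation. In VAS WT the order of levels per kb was *Timp3* at 1762 ± 100 (SD, n = 5), *Timp2* at 1484 ± 63.5, *Mmp3* at 668 ± 17.9, *Mmp14* at 479 ± 42.2, *Mmp2* at 369 ± 30.6, *Timp1* at 129 ± 16.5, *Mmp9* at 26.5 ± 6.06, *Mmp12* at 20.6 ± 1.93 and *Timp4* at 11.5 ± 2.26. Only the ranges of *Mmp9* and *Mmp12* overlapped between neighbours. In the libraries labelled VAD *Stra6-/-*, *Mmp3* at 11774 ± 993 per kb and *Timp3* at 10913 ± 567 led with overlapping ranges, followed by *Timp2* at 4387 ± 65.2, *Mmp2* at 1514 ± 73.6, and *Mmp14* and *Timp1*, which overlapped, at 657 ± 174 and 573 ± 82.0. *Mmp3* made up 40.6% to 45.4% of the summed MMP level per kb in VAS WT and 82.5% to 84.9% in the libraries labelled VAD *Stra6-/-*. *Timp3* made up 50.6% to 53.2% of the summed TIMP level in VAS WT, 54.7% to 57.9% in VAS *Stra6-/-*, 40.8% to 50.2% in VAD WT and 66.6% to 70.2% in the libraries labelled VAD *Stra6-/-*.

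The ratio of the summed TIMP level to the summed MMP level per kb is taken within a library and so does not depend on the size factors. It was 2.02, 2.03, 2.23, 2.11 and 2.46 in VAS WT and 2.73, 2.62, 2.56, 2.61 and 2.63 in VAS *Stra6-/-*. On the VAD diet it was 1.12, 0.894, 1.12, 0.881 and 1.18 in WT, and 1.13, 1.204, 1.15, 1.26 and 0.950 in the libraries labelled VAD *Stra6-/-*. Every library labelled VAD was thus below every VAS library, whatever the genotype label, although this sum was looked at after the values were known and was not tested. The sums behind it differed among the VAD libraries. In VAD WT replicates 1, 3 and 5 the MMP sum, 1440 to 1504 per kb, was close to the 1456 to 1641 of VAS WT, and the TIMP sum was 1607 to 1755 against 3225 to 3581. In VAD WT replicates 2 and 4 both sums were higher than in VAS WT, the MMP sum at 6738 and 6789 and the TIMP sum at 6025 and 5980. In the libraries labelled VAD *Stra6-/-* the MMP sum reached 12958 to 15725 and the TIMP sum 14936 to 16308.

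**Figure D4:**
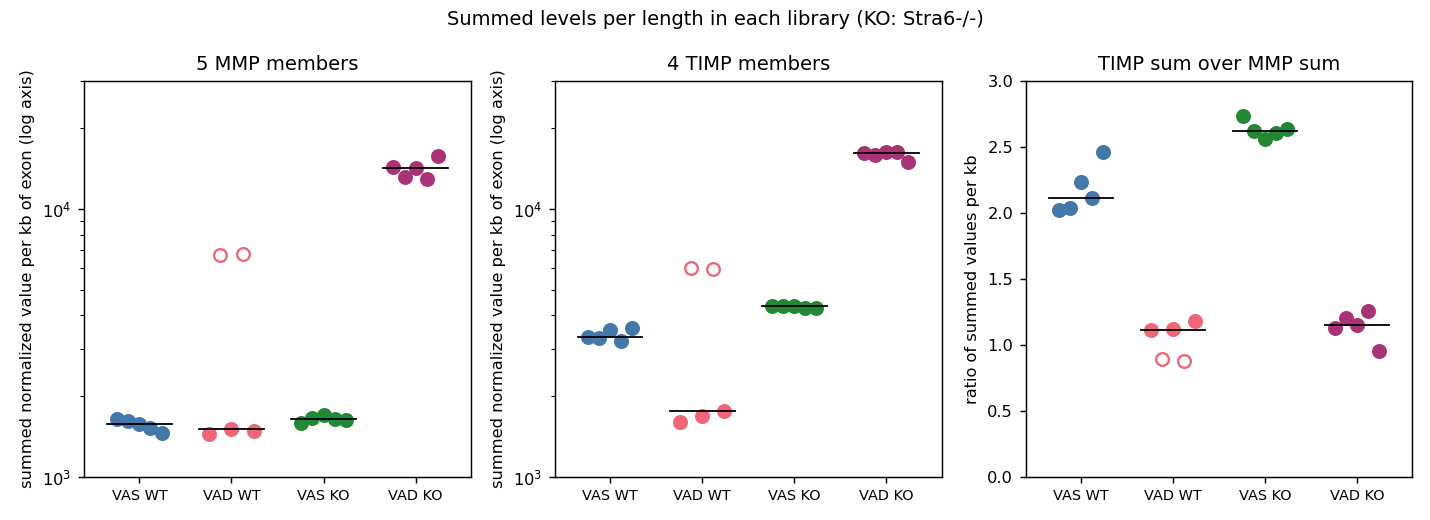
Summed level per kb of exon of the 5 MMP members (left, log axis) and 4 TIMP members (middle, log axis) and their ratio (right, linear from 0) in each library, with KO for *Stra6-/-*; bars are group medians and open points VAD WT replicates 2 and 4. The ratio lies between 0.881 and 1.26 in the 10 VAD libraries and between 2.02 and 2.73 in the 10 VAS libraries.

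Of the 18 further MMP genes, 15 were tested. In VAS *Stra6-/-* against VAS WT, *Mmp28* (epilysin) rose from 91.2 ± 28.8 to 244 ± 29.96 (log2 1.47, adjusted p = 0.00238) and *Mmp19* from 89.3 ± 20.9 to 197 ± 19.6 (log2 1.16, adjusted p = 0.0239), and *Mmp11* (stromelysin-3) fell from 169 ± 30.03 to 69.5 ± 9.27 (log2 -1.26, adjusted p = 1.37e-04). Of all genes, 26.6% were called in either direction in that comparison. In VAD WT 1 fell, *Mmp15*, a membrane-type MMP (log2 -0.50, adjusted p = 0.00838), beside 5.5% of all genes downwards. Against VAS *Stra6-/-*, 5 rose and 4 fell of the 15 in the libraries labelled VAD *Stra6-/-*, beside the 24.4% and 28.8% of all genes. *Mmp23* rose from 85.4 ± 27.2 to 409 ± 90.4 (log2 2.27, adjusted p = 4.85e-07), whereas *Mmp28* fell from 244 ± 29.96 to 44.4 ± 24.1 (log2 -2.62, adjusted p = 9.27e-07) and *Mmp15* from 737 ± 29.2 to 294 ± 49.9 (log2 -1.34, adjusted p = 2.64e-09). *Mmp8*, the neutrophil collagenase, was called at a mean of 12.8 ± 11.6 against 2.59 ± 1.85. Against VAD WT 6 were higher and 3 lower, beside 26.2% and 29.6% of all genes. The median log2 fold change of the list was 0.21 against VAS *Stra6-/-* and 0.54 against VAD WT.

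TIMP3 also inhibits several ADAM and ADAMTS proteinases, and 6 of these were listed. In VAS *Stra6-/-* the sheddase *Adam10* rose (log2 0.43, adjusted p = 1.27e-04) and the aggrecanase *Adamts5* fell (log2 -0.75, adjusted p = 4.68e-04), beside 26.6% of all genes in either direction. In VAD WT the list median was -0.17. In the libraries labelled VAD *Stra6-/-* against VAS *Stra6-/-*, 4 rose and 1 fell, beside 24.4% and 28.8% of all genes. The gene that fell was *Adam17*, which releases TNF from the cell surface, from 1109 ± 53.0 to 885 ± 44.9 (log2 -0.33, adjusted p = 0.0135). Among the 4, *Adamts4* rose from 52.5 ± 14.2 to 214 ± 33.1 (log2 2.04, adjusted p = 0.00194) and *Adamts1* from 1329 ± 57.6 to 3531 ± 270 (log2 1.41, adjusted p = 0.00705). Against VAD WT 4 of 6 were higher, beside 26.2% of all genes. The median log2 fold change of the list was 1.17 against VAS *Stra6-/-* and 0.55 against VAD WT.

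Among 12 activators and regulators of MMPs, 5 rose and 2 fell in VAS *Stra6-/-* against VAS WT. Of all 18807 genes tested, 2984 rose and 2026 fell there. The urokinase receptor gene *Plaur* rose from 46.9 ± 4.23 to 445 ± 21.4 (log2 3.22, adjusted p = 0.00966), *Cd44*, whose product holds MMPs at the cell surface, from 2597 ± 230 to 5274 ± 278 (log2 1.03, adjusted p = 0.00152), and *Plat*, the tissue plasminogen activator, from 853 ± 39.4 to 1409 ± 99.7 (log2 0.72, adjusted p = 6.72e-07). Basigin (*Bsg*), an inducer of MMPs and an RPE surface protein, fell in that comparison (log2 -0.40, adjusted p = 0.00219) and in VAD WT (log2 -0.65, adjusted p = 6.15e-05). In the libraries labelled VAD *Stra6-/-* against VAS *Stra6-/-*, 7 rose and 2 fell, beside 24.4% and 28.8% of all genes. Those that rose included the inhibitors *Serpine2* (log2 1.74, adjusted p = 2.67e-06), *Reck*, a membrane-anchored MMP inhibitor (log2 1.52, adjusted p = 0.00179), and *A2m*, the broad proteinase trap alpha-2-macroglobulin (log2 1.42, adjusted p = 1.57e-13), while *Cd44* fell to 1528 ± 137 (log2 -1.79, adjusted p = 5.87e-07). Against VAD WT 10 were higher and 2 were lower, beside 26.2% and 29.6% of all genes.

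Of 20 matrix proteins that MMPs cleave, 10 rose and 3 fell in the libraries labelled VAD *Stra6-/-* against VAS *Stra6-/-*. This stood beside 24.4% and 28.8% of all genes, and the list median was 0.40. The collagen-binding proteoglycan *Dcn* (decorin) rose from 16374 ± 234 to 117274 ± 4307 (log2 2.84, adjusted p = 5.36e-09) and the fibrillar collagen *Col1a2* from 7071 ± 110 to 32175 ± 587 (log2 2.19, adjusted p = 2.79e-06). Those that fell were *Hspg2*, the basement membrane proteoglycan perlecan (log2 -0.92, adjusted p = 4.14e-05), *Efemp1*, a fibulin of Bruch's membrane (log2 -0.74, adjusted p = 0.00139), and *Fn1*, fibronectin (log2 -0.60, adjusted p = 1.60e-06). *Fn1* had risen in VAS *Stra6-/-* against VAS WT (log2 0.78, adjusted p = 3.25e-07) and in VAD WT (log2 1.00, adjusted p = 3.16e-08). In VAD WT 3 of the 20 rose and 5 fell, beside 8.78% of all genes in either direction and 5.5% downwards. Those that fell included the basement membrane collagens *Col4a3* (1907 ± 55.5 to 594 ± 229, log2 -1.77, adjusted p = 1.05e-06) and *Col4a4* (727 ± 46.8 to 347 ± 114, log2 -1.12, adjusted p = 2.67e-05).

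The genes most like each member were ranked by Pearson's r of log2(value + 1) over the 20 libraries among 15536 genes, as a description in which all points share libraries and group structure. For *Mmp3* they were *Serpinf1* (0.998), *Dcn* (0.996) and *Sparc* (0.994), and for *Mmp2* *Cilp2* (0.992), *Col1a2* (0.988) and *Sparc* (0.986). For *Timp3* they included *Sv2b* (0.998) and *Atp1b1* (0.995). They were, for *Timp2*, *Slc24a1* (0.995), *Fkbp9* (0.994) and *Fbln5* (0.993), and for *Timp1* *Extl2*, *5930403L14Rik* and *Pttg1ip*, at 0.973 to 0.982. For *Mmp12* they were *Aass* (0.981), *Fam13a* (0.980) and *Pde1c* (0.979), none of which is shared with *Mmp2* or *Mmp3*. The nearest genes were less close for *Mmp9* (*Trnp1*, 0.922), *Mmp14* (*Atp9a*, 0.911) and *Timp4* (*Zyx*, 0.852).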

How the data were processed

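The deposited table held gene counts that the authors had divided by DESeq2 size factors, so that its values are a normalized signal and not raw counts; per the labels, reads were handled with STAR 2.5.3a, RSEM 1.2.30 and DESeq2 1.32.0 on GRCm38/mm10. Every value was a whole multiple of 1 step per library, to within 1.25e-09 reads, in all 20 libraries, from which reads were recovered; the step of replicate 1 labelled VAD *Stra6-/-* was too near 1 for a separate check, and that library was left out of the count tests. Genes with at least 5 recovered reads in all were fitted as log2(value + 1) on 4 group means with limma 3.58.1 (R 4.3.3, trended empirical Bayes, Benjamini-Hochberg adjustment), and edgeR 4.0.16 and DESeq2 1.42.0 on recovered reads of 19 libraries, 4 of them labelled VAD *Stra6-/-*, were alternatives. Fold changes on this scale understate changes of low genes. By the study's methods each library was 1 mouse, which the sex-linked transcripts of 7 libraries go against, so p-values measure only the spread between these libraries. Same-numbered libraries shared no deviation. Exon lengths and overlaps came from GENCODE vM21 and promoters from RefSeq. Every member is named; of each other list, up to 3 genes per comparison and direction with a mean of 10 or more in a group were eligible to be named, by size of change. Some genes that these rules named are not reported here. Members, lists and rules were chosen with earlier results of these data known. The scripts were tested on simulated data. Intervals of counting error are not given, since the spread between libraries exceeded it.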

Additional observations from a re-analysis of the deposited data

Results flagged for a closer look

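Across the 36 sets of 5 libraries (9 members in 4 groups), 4 held a value whose gap to its nearest neighbour exceeded Dixon's limit of 0.71 of the range, where chance gives about 1 in 20. *Mmp14* was 5759 in replicate 5 of the libraries labelled VAD *Stra6-/-*, beside 3274 to 3634 in the other 4. *Timp4* was 43.0 in replicate 4 of that group, beside 87.9 to 101. In VAS WT, *Timp1* was 88.4 in replicate 1, beside 117 to 123, and *Mmp12* was 173 in replicate 3, beside 139 to 148. VAD WT replicates 2 and 4 are not among these values. The rule measures only the gap between 1 extreme value and its nearest neighbour, so 2 libraries that lie far from the rest together are not flagged.

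The diet effect differed between the genotype labels, by the interaction test in limma, for 8 members. The log2 change from VAS to VAD in *Stra6-/-* minus that in WT was 3.0 for *Mmp3*, 3.0 for *Mmp12*, 2.65 for *Timp3*, 2.18 for *Timp1*, 1.42 for *Timp2*, 1.39 for *Timp4*, 0.64 for *Mmp14* and -0.89 for *Mmp9*. *Stra6* itself stood at 2163 ± 154 where the label was VAD *Stra6-/-* and at 986 ± 415 in VAD WT. RPE markers also differed between these groups, so the *Stra6* level cannot check the labels, and the differences are between labelled libraries.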

How the results depend on the processing

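Over 45 pairs of a member and a comparison, 30 kept their direction and their side of the threshold under every alternative run. Of 1341 values under the alternatives, 1274 did, 22 lost the call, 36 gained it and 9 changed sign, none of the latter being called. The number of members called in VAS *Stra6-/-* against VAS WT went from 0 to 3 with the 2 groups alone and to 3 without VAD WT replicates 2 and 4, and stayed at 0 with any 1 library left out (0 to 0). That in VAD WT against VAS WT went from 1 to 2 with a mean of at least 10 in a group, 0 with the 2 groups alone, 2 in edgeR, 4 in DESeq2 and 6 without VAD WT replicates 2 and 4, and ranged from 0 to 3 with 1 library left out. The counts for the libraries labelled VAD *Stra6-/-* stayed at 6 to 7 against VAS *Stra6-/-* and at 9 against VAD WT, and the interaction at 7 to 8. For VAS *Stra6-/-* against VAS WT, the main fit and those 2 alternatives use the same libraries of both groups, with *Mmp2* at log2 0.20 in each. They differ in the libraries on which the error estimate rests. The cause of the other shifts was not tested. Over all genes, the count for VAS *Stra6-/-* against VAS WT went from 5010 to 8444 with the 2 groups alone, and that for VAD WT against VAS WT from 1652 to 547 with the 2 groups alone, 7138 without VAD WT replicates 2 and 4, and 2662 without VAD WT replicate 4.

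Sign changes, all of values that were not called, were those of *Mmp3* in VAS *Stra6-/-* against VAS WT without VAS *Stra6-/-* replicate 5 (0.0063 on the log2 scale; range -0.067 to 0.0063 with 1 library left out), and, in VAD WT against VAS WT, of *Timp1* without VAD WT replicate 5 (0.12; range -0.44 to 0.12 with 1 library left out), in edgeR (0.042) and in DESeq2 (0.038), and of *Timp2* without VAD WT replicate 1 (0.12), 3 (0.092) or 5 (0.063; range -0.32 to 0.12), in edgeR (0.16) and in DESeq2 (0.16). Same-numbered libraries had a median correlation of deviations of 0.006 over 30 pairs, with 0 over 0.1, and 16 of 60 libraries and partner groups matched their own number best, so the numbers did not pair them. With the replicate number as a block, 0, 1, 6 and 9 members were called in the 4 comparisons and 7 in the interaction, where *Mmp9* was lost (adjusted p = 0.0519). Values near 10 reads, as for *Mmp8*, carry large counting error, and each group rests on 5 libraries, of a single sex pattern on the VAS diet within a genotype. Diet and the pattern of sex-linked transcripts cannot be told apart within *Stra6-/-*.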
